A study of Mus musculus with 7 samples.

Results

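Basic helix-loop-helix (bHLH) transcription factors drive the step from dividing precursor to neuron. The 5 proneural and neuronal factors Neurog1, Neurod1, Neurod2, Nhlh1 and Nhlh2 were taken by gene name from the 54532 genes of the expression table and followed across all 7 libraries. Poly(A) RNA was sequenced from cells sorted by fluorescence from the olfactory epithelia of mice. Mature olfactory sensory neurons came from animals with the genotype OMP-GFP at postnatal days 2, 7 and 16 (P2, P7 and P16; 3 libraries). Intermediate progenitor cells came from animals with the genotype Neurog1-GFP at P3, P7, P9 and P16 (4 libraries). Both groups thus carried a green fluorescent protein (GFP) reporter, each named for a gene of the stage it marks, and each library was made from a pool of purified cells. The labels state neither how the reporters were built, nor whether the Neurog1-GFP reporter contains Neurog1 sequence, nor how many animals entered a pool.

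Proneural factors bind DNA as dimers with the widely expressed E proteins, at a 6-base element called the E-box (CANNTG). Neurogenin 1, the product of Neurog1, acts early and transiently in precursors of sensory neurons. Neurod1 and its relative Neurod2 act later, in cells that leave the cell cycle and differentiate, and Nhlh1 and Nhlh2 are made in newly formed neurons. Id proteins block the dimers by binding E proteins, and Hes and Hey proteins, many of them made in response to Notch signalling, repress proneural genes. In the olfactory epithelium globose basal cells give rise to Neurog1 and Neurod1 cells, which produce immature and then mature sensory neurons.

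On GRCm38 (mm10), Neurog1 is a gene of 1 exon on the minus strand of chromosome 13 (56250478 to 56252163). Neurod1 has 2 exons on the minus strand of chromosome 2 (79452521 to 79456751). Neurod2 has 2 exons on the minus strand of chromosome 11 (98325415 to 98329648), and Nhlh1 has 2 on the minus strand of chromosome 1 (172052292 to 172057573). Nhlh2 lies on the plus strand of chromosome 3 (102010076 to 102015492) with 3 annotated transcripts. Neurod1 was the member of the 5 that shared exon sequence with other genes. Its partner on the same strand, Cerkl, was at 13.3 to 15.99 TPM (transcript abundance scaled for length and library total) in mature neurons and 16.7 to 22.3 TPM in progenitors, and its partner on the opposite strand, Gm26755, was at 0 to 0.09 TPM over all 7 libraries.

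Since bHLH factors bind E-boxes, the 250 bases before each RefSeq transcript start (GRCm38.p6) were searched for CANNTG, which reads the same on both strands. All 5 genes matched a window. Neurog1 had 0 matches, Neurod1 had 1 (CATATG, 242 bases before the start), Neurod2 had 3 (CAGATG at 118, CATGTG at 51 and CATATG at 17), Nhlh1 had 1 (CAGATG at 203) and Nhlh2 had 2 (CAACTG at 209 and CAGATG at 127). Of 32851 windows of this length, 66.2% held at least 1 CANNTG and 12.2% held 3 or more. CAGATG, in either orientation, was present in 14.4% of windows and CATATG in 3.46%. CAGATG thus appeared in 3 of the 5 windows, and CATATG in those of both Neurod genes. The windows of Neurod1, Nhlh1 and Nhlh2 are shown because these 3 well-expressed members hold a match. Each is given 5′ to 3′ on the gene's strand with the CANNTG matches in capitals, and stops short of any annotated exon (chr2:79456786-79456886, chr1:172057597-172057846 and chr3:102009895-102010075).
Neurod1: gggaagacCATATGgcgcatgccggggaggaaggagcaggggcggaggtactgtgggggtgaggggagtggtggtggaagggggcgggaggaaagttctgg
Nhlh1: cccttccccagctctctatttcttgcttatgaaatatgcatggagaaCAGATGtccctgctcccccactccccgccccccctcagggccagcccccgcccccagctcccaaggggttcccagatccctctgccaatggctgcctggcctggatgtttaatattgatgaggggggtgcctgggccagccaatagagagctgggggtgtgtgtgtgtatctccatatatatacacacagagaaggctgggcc
Nhlh2: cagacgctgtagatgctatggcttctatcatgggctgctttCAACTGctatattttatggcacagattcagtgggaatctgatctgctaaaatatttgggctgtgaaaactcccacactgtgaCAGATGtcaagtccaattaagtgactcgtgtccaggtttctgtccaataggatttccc

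In progenitors Neurog1 and Nhlh1 were the most abundant of the 5 factors, followed by Neurod1, Nhlh2 and, far below, Neurod2. In mature neurons the order was different, with Nhlh1 first and Nhlh2, Neurod1 and Neurog1 after it, and Neurod2 at 0. Levels of different genes are compared in TPM because it is scaled for transcript length.

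Neurog1, the factor for which the progenitor reporter is named, stood at 698, 292, 416 and 324 TPM in the P3, P7, P9 and P16 progenitor libraries and at 1.09, 1.85 and 0.84 TPM in the P2, P7 and P16 mature neuron libraries. The groups were far apart in the direction the labels give. The mature values rested on 35, 49 and 26 counts, against 8453 to 22267 in progenitors. Among progenitors the P3 library was highest, 2.39 times the lowest.

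Neurod1, a differentiation factor that neurogenins activate, was at 239, 165, 154 and 161 TPM in the P3, P7, P9 and P16 progenitors. It was at 1.65, 3.51 and 1.74 TPM in the P2, P7 and P16 mature neurons. The P3 progenitor library was again highest and the other 3 progenitor libraries lay close together, and the P7 library was the highest of the mature neurons.

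Neurod2, known best from cortical and cerebellar neurons, was at 1.88, 0.90, 1.13 and 0.93 TPM in the P3, P7, P9 and P16 progenitors (99, 44, 58 and 47 counts). It had 0 counts in each of the 3 mature neuron libraries. A floor of 3 counts over the 3 libraries, 0.0425 CPM (counts scaled to library size), makes the progenitor mean of 2.32 CPM at least 54.6-fold higher, a bound that covers counting error only.

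Nhlh1 was at 325, 386, 288 and 297 TPM in the P3, P7, P9 and P16 progenitors and at 17.4, 19.6 and 10.3 TPM in the P2, P7 and P16 mature neurons. Its paralog Nhlh2 was at 153, 129, 103 and 126 TPM in the same progenitors and at 6.71, 8.66 and 5.85 TPM in the same mature neurons. For both genes the lowest progenitor library was more than 10 times the highest mature neuron library, and in mature neurons the P7 library was highest and the P16 library lowest.

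In the order of progenitor levels, Neurog1 (432 ± 185 TPM, SD, n = 4) and Nhlh1 (324 ± 44.2 TPM) overlapped, and Nhlh1 exceeded Neurog1 in the P7 library only. Nhlh1 and Neurod1 (179 ± 39.8 TPM) did not overlap. Neurod1 and Nhlh2 (127 ± 20.3 TPM) were separated by a narrow margin, with the lowest Neurod1 library at 153.9 TPM and the highest Nhlh2 library at 152.7 TPM. Among all 54532 genes ordered by mean progenitor TPM, Neurog1 was number 300, Nhlh1 445, Neurod1 947, Nhlh2 1467 and Neurod2 16382. In mature neurons Nhlh1 (15.7 ± 4.87 TPM, SD, n = 3), Nhlh2 (7.07 ± 1.44 TPM) and Neurod1 (2.30 ± 1.05 TPM) did not overlap, while Neurod1 and Neurog1 (1.26 ± 0.526 TPM) did. Within each mature neuron library Neurod1 was nevertheless above Neurog1.

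**Figure D1:**
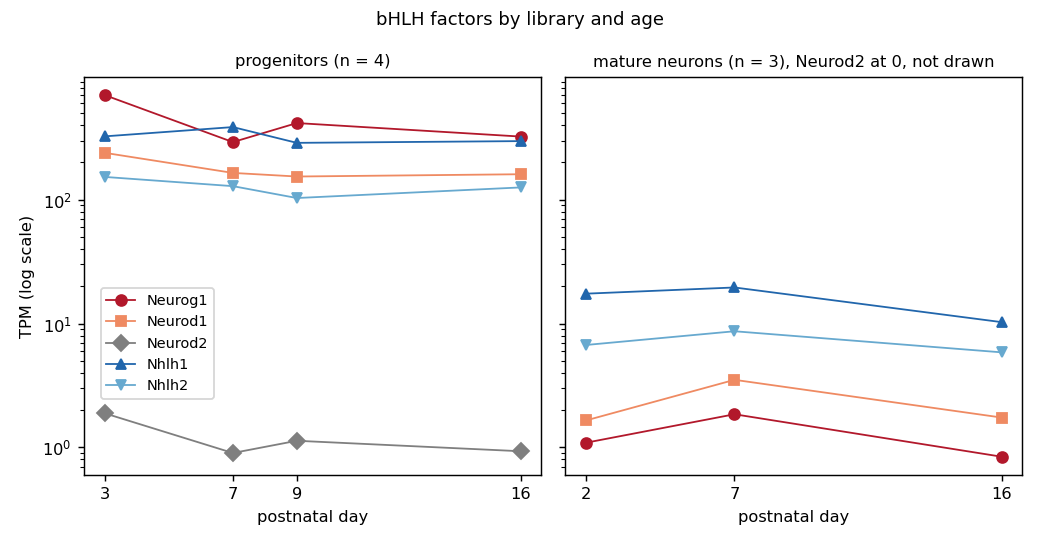
Level of each factor in each library (TPM, log scale) against postnatal day, with 1 library per point, progenitors on the left and mature neurons on the right; lines join the libraries of 1 gene. Neurog1 goes from the top at P3 in progenitors (698 TPM) to the lowest drawn position in mature neurons (0.84 to 1.85 TPM), while Nhlh1 and Nhlh2 keep their distance from each other.

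The populations were then compared gene by gene with edgeR's quasi-likelihood test on the counts. Neurog1, Neurod1, Nhlh1 and Nhlh2 were called lower in mature neurons, and for all 5 factors every progenitor library was above every mature neuron library. Among the 17975 tested genes, 30.0% were called lower in mature neurons, 28.8% higher and 58.8% in either direction (adjusted p under 0.05), and 32.2% had every progenitor library above every mature neuron library, against 29.2% with the reverse. All 5 passed the filter on low counts. Neurod2, at 0 in mature neurons, passed only through the progenitor libraries, so it is described by its counts and bound alone and no p is given for it; the common direction of the 5 is a description. In bulk RNA, fewer cells of a type and less RNA per cell cannot be told apart, and population and mouse line coincide here.

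The folds differed in size, from Neurog1 with the largest to Nhlh2 with the smallest of the 4 that could be fitted. Mature neurons had 0.311% of the progenitor CPM of Neurog1, a 321-fold lower level (log2 fold -8.32, SE 0.47, edgeR adjusted p = 8.42e-06). They had 1.39% of that of Neurod1, a 71.8-fold lower level (log2 fold -6.16, SE 0.31, edgeR adjusted p = 6.15e-06). Nhlh1 kept 5.20% of its progenitor level, 19.2-fold lower (log2 fold -4.27, SE 0.23, edgeR adjusted p = 7.5e-06), and Nhlh2 kept 5.87%, 17.0-fold lower (log2 fold -4.09, SE 0.18, edgeR adjusted p = 4.11e-06). Of all tested genes ordered from the lowest log2 fold, Neurog1 was number 9, Neurod1 number 61, Nhlh1 number 206 and Nhlh2 number 234. Progenitors were sorted by fluorescence from Neurog1-GFP animals, so the direction of the Neurog1 fold was largely set by the design. Its p and rank are descriptions for that reason. The median log2 fold of all tested genes was 0.01. Among called genes 49.0% were higher in mature neurons; on log2(TPM + 1) with limma this share was 39.0% and the median of all genes was -0.106.

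Whether the balance between the factors differed between the populations was tested on the log2 ratio of their TPM within each library, for the 6 pairs of the 4 factors detected throughout. This comparison was chosen after the levels were seen. In progenitors Nhlh1 was at 0.465, 1.32, 0.692 and 0.919 times Neurog1 at P3, P7, P9 and P16. In mature neurons it was at 15.98, 10.6 and 12.2 times Neurog1 at P2, P7 and P16. The balance thus lay near or below parity in 3 of 4 progenitor libraries and strongly toward Nhlh1 in each mature neuron library.

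The mean log2 ratio of Nhlh1 to Neurog1 was 3.67 ± 0.30 in mature neurons (SD, n = 3) and -0.34 ± 0.64 in progenitors (SD, n = 4). The difference of 4.01 had a two-sided exact permutation p of 0.0286, the smallest possible with 3 against 4 libraries, and 0.0343 after Benjamini-Hochberg adjustment over the 6 pairs. The difference was 4.24 for Nhlh2 to Neurog1, 2.17 for Nhlh2 to Neurod1, 2.06 for Neurod1 to Neurog1 and 1.95 for Nhlh1 to Neurod1. In these 4 pairs too the populations did not overlap, with the same exact permutation p of 0.0286 (0.0343 adjusted). The 6 ratios share 4 genes and are not independent, and some include Neurog1, for which the progenitor reporter is named. Taken singly, 32.2% of tested genes had every progenitor library above every mature neuron library and 29.2% the reverse. Each difference largely restates the gap between the population folds of its genes, and the pairs were chosen after the levels were seen. The share of other gene pairs that do not overlap was not computed. The separation and its p are thus descriptions. Neurod1 was below Neurog1 in each progenitor library (0.342 to 0.564 times) and above it in each mature neuron library (1.51 to 2.07 times). The Nhlh2 to Neurod1 ratio also crossed parity, from 0.639 to 0.782 in progenitors to 2.47 to 4.07 in mature neurons.

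The ratio of the paralogs was the exception. Nhlh2 was at 0.470, 0.333, 0.359 and 0.422 times Nhlh1 in progenitors and at 0.385, 0.443 and 0.570 times Nhlh1 in mature neurons. These ranges overlapped, and the log2 difference of 0.229 did not pass the test (two-sided exact permutation p = 0.286, adjusted p = 0.286). With any 1 library left out the smallest possible p is 0.0667 or 0.1, so no pair can pass the threshold there; the 5 larger differences then stayed between 1.65 and 4.41.

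**Figure D2:**
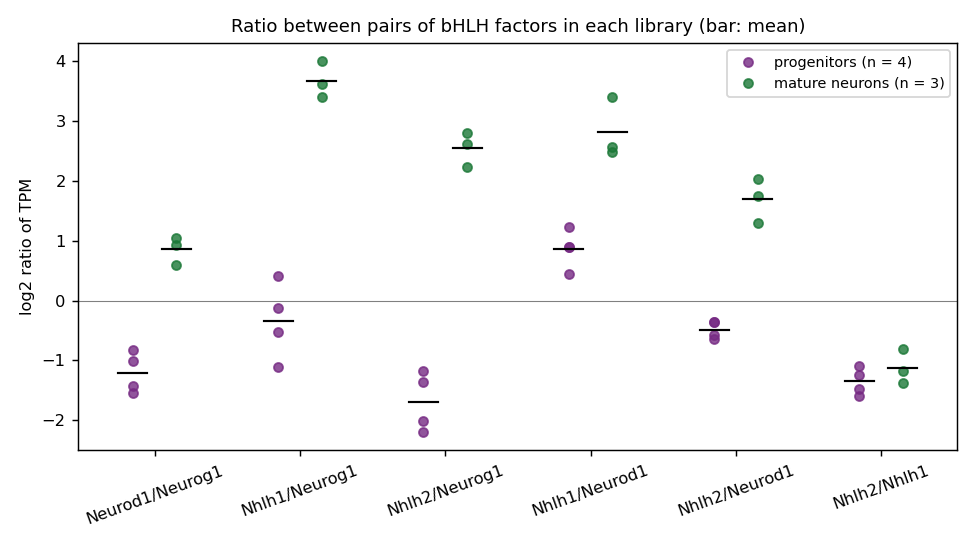
Log2 ratio of TPM between 2 factors in each library, with 1 point per library (4 progenitor, 3 mature neuron), the mean as a bar and a line at parity. The populations are apart in 5 of 6 pairs, by 1.95 to 4.24 on the log2 scale, and overlap for Nhlh2 to Nhlh1. The pairs share genes and are not independent, and the share of other gene pairs that do not overlap was not computed.

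Other bHLH factors of the same families were mostly faint. Of 20 listed, 9 were tested, 6 of which fell in mature neurons and 0 rose (median log2 fold -1.28). The shares over all tested genes were 30.0% lower and 28.8% higher. Neurod6, a relative of Neurod2, averaged 8.09 TPM in progenitors and 0.103 TPM in mature neurons (0 to 0.22 TPM). It passed the filter on low counts only through the progenitor libraries, so no p is given for it. Its place in the count and median of the list is a description. Its log2 fold of -6.15 depends on values near 0 and ran from -7.24 to -3.02 over 15 alternatives. Neurod4 averaged 1.30 TPM in progenitors and 0.187 TPM in mature neurons (log2 fold -2.67). Olig2 and Olig1, best known from oligodendrocyte precursors, were the abundant ones. Olig2 averaged 167 TPM in progenitors and 63.2 TPM in mature neurons (log2 fold -1.28), and Olig1 averaged 129 and 71.5 TPM (log2 fold -0.73). Neurog2, Ptf1a and Ferd3l, named after their values were seen, were listed at 0 in each of the 7 libraries.

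The E proteins, dimer partners of the factors, and the adaptors listed with them had mostly smaller folds. Of 7 tested E proteins and adaptors, 6 fell in mature neurons and 0 rose, with a median log2 fold of -1.07. All tested genes together had 30.0% lower and 28.8% higher. The E protein genes Tcf3, Tcf12 and Tcf4 averaged 73.3, 74.5 and 62.5 TPM in progenitors and 32.8, 41.6 and 32.6 TPM in mature neurons (log2 folds -1.07, -0.77 and -0.77). Ldb1, an adaptor that joins LIM-domain and bHLH complexes, had a log2 fold of -1.30 and Lmo4, a LIM-only protein, one of -1.21. Lmo1 had the largest change of the list, from 38.5 TPM in progenitors to 3.82 TPM in mature neurons (log2 fold -3.18, SE 0.17, edgeR adjusted p = 8.36e-06). Lmo2 had a log2 fold of -0.12 and was not called (edgeR adjusted p = 0.347).

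Among the inhibitors of bHLH activity both directions were seen. Of all tested genes, 30.0% were called lower in mature neurons and 28.8% higher. Of the 4 Id genes 3 fell in mature neurons and 0 rose: Id2 (log2 fold -1.79), Id3 (-1.45) and Id4 (-0.40). Id1 had a log2 fold of -0.59 (edgeR adjusted p = 0.135) and was called at -0.80 without the P16 progenitor library and at -0.65 with age as a covariate. Id4 was the most abundant of them in both populations, at 199 ± 2.30 TPM in progenitors (SD, n = 4) and 139 ± 20.8 TPM in mature neurons (SD, n = 3). Of 7 tested Hes and Hey genes, 3 fell and 2 rose, with a median log2 fold of -0.11. In a list this short, these counts are not set apart from the shares of all tested genes. Hes6, which promotes neuronal differentiation, fell from 226 TPM in progenitors to 29.3 TPM in mature neurons (log2 fold -2.82, SE 0.21, edgeR adjusted p = 2.4e-05). Hes5, a Notch target, fell from 7.62 to 1.80 TPM (log2 fold -2.03). Its call was lost in 4 of 15 alternatives, among them without the P2 or the P7 mature neuron library (edgeR adjusted p = 0.0731 and 0.0679) and with age as a block at P7 and P16 (log2 fold -1.0, edgeR adjusted p = 0.0711). Hes2, counted among the falls, was under 1 TPM throughout, at 0.24 to 0.42 TPM in progenitors and 0 to 0.11 TPM in mature neurons. Its fall is a description. Hes1, a Notch target named after its values were seen, averaged 24.96 TPM in progenitors and 34.9 TPM in mature neurons (log2 fold 0.61, edgeR adjusted p = 0.0407). It lost its call in 8 of 15 alternatives, with adjusted p from 0.00421 to 0.198. Hey2 averaged 0.383 TPM in progenitors and 1.27 TPM in mature neurons (log2 fold 1.82).

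**Figure D3:**
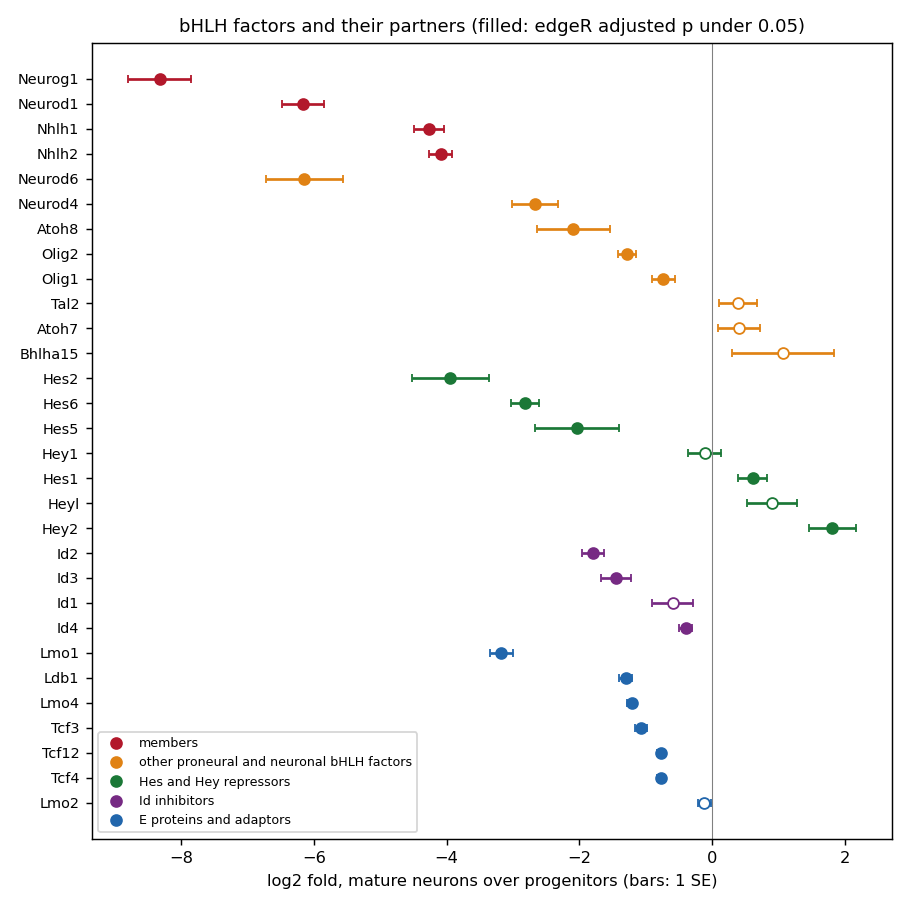
Log2 fold of mature neurons over progenitors (x axis; bars are 1 SE) for 4 of the 5 factors and for the tested genes of 4 related lists that are reported here; filled points have an edgeR adjusted p under 0.05. Neurog1 (-8.32), Neurod1 (-6.16) and Neurod6 (-6.15) lie farthest to the left, and most E protein and Id genes lie between -2 and 0. The Neurod6 and Hes2 folds depend on mature neuron values near 0, so their filled points are descriptions. Neurod2 is left out because it had 0 counts in mature neurons.

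Genes described as acting downstream of neurogenins or Neurod factors followed the same direction, mostly with smaller folds. Of 20 tested, 18 fell in mature neurons and 0 rose, at a median log2 fold of -1.35 or 39.4% of the progenitor CPM. Among all tested genes 30.0% were called lower and 28.8% higher. The direction was not particular to this list. All 11 immature neuron markers (median log2 fold -1.65) and 9 of 10 dividing cell markers (median -2.72) fell too. St18, a zinc-finger factor, fell from 24.2 TPM in progenitors to 0.777 TPM (log2 fold -5.79, SE 0.43), and Mfng, a glycosyltransferase that modifies Notch, fell from 116 to 2.09 TPM (log2 fold -5.62, SE 0.41). Cdkn1b, an inhibitor of the cell cycle, had a log2 fold of -2.48, and Elavl4, a neuronal RNA-binding protein, one of -1.95. Dcx (log2 fold -0.35, edgeR adjusted p = 0.0668), a microtubule protein of young neurons, and Rnd2 (0.35, edgeR adjusted p = 0.0507), a small GTPase, were not called and were named after their values were seen. Both were called in some alternatives, Dcx in 6 of 15 and Rnd2 in 4 of 15.

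The labels were checked against markers of the cell types. Of 14 mature neuron markers 13 rose in mature neurons and 0 fell, beside 28.8% higher and 30.0% lower among all tested genes. Omp itself was not called, at 1066 to 1630 TPM in mature neurons and 1323 to 2371 TPM in progenitors. The summed mature markers were at 21870 to 32170 TPM in mature neurons and still at 5992 to 9308 TPM in progenitors. All 11 immature neuron markers fell in mature neurons (1978 to 2730 TPM summed, against 8519 to 10440 TPM in progenitors), as did 9 of 10 dividing cell markers (median log2 fold -2.72) and 6 of 8 globose basal cell markers (median -1.44). None of these markers was at 0 TPM in any library. The dividing cell markers summed to 108 to 179 TPM in mature neurons and 392 to 638 TPM in progenitors. Beside the median of 15.1% of the progenitor CPM for dividing and 31.8% for immature markers, the 4 bHLH factors detected in mature neurons were at 0.311% to 5.87%. The 0.311% belongs to Neurog1, whose direction was largely set by the design. Single dividing cell markers were at 7.07% to 89.9% and immature markers at 11.4% to 67.8%. Globose basal cell markers were at 5.7% to 105.7% (median 37.15%) and described downstream genes at 1.80% to 127.2%. Residues as low as those of Nhlh1 and Nhlh2 were thus not particular to the factors. The part of the dividing, immature and globose basal stages in the bHLH folds was not tested.

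Markers of other cells showed few falls, beside 30.0% lower and 28.8% higher among all tested genes. In mature neurons 7 of 8 leukocyte markers rose (22.4 to 84.1 TPM summed, against 11.3 to 19.1 TPM), as did 5 of 7 ensheathing glia markers (50.5 to 115 TPM, against 21.7 to 37.5 TPM). Of these, C1qc lost its call in 2 of 15 alternatives, Sox10 in 6 of 13 and S100b in 5 of 13. Of 10 sustentacular markers Cyp2g1 and Ermn rose (3283 to 5470 TPM summed over the list, against 2422 to 4662 TPM), but each lost its call in 8 of 15 alternatives, and 0 of 6 horizontal basal cell markers changed. Of 6 tested microvillous markers 1 fell and 1 rose, of 4 vomeronasal and GnRH markers 1 fell (Gnai2) and 1 rose (Gnrh1), and of 5 erythroid and endothelial markers 1 rose (Kdr). Gnai2 lost its call in 3 of 15 alternatives, Gnrh1 in 6 of 15 and Kdr in 9 of 13. Leaving out the P7 mature neuron library or the P3 progenitor library ended the calls of Cyp2g1, Ermn, Gnai2, Gnrh1 and Kdr. Of 6 olfactory bulb and cortical markers 3 fell, Neurod6 among them, and 1 rose. Neurod6 passed the filter on low counts only through the progenitor libraries, so its fall is a description.

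**Figure D4:**
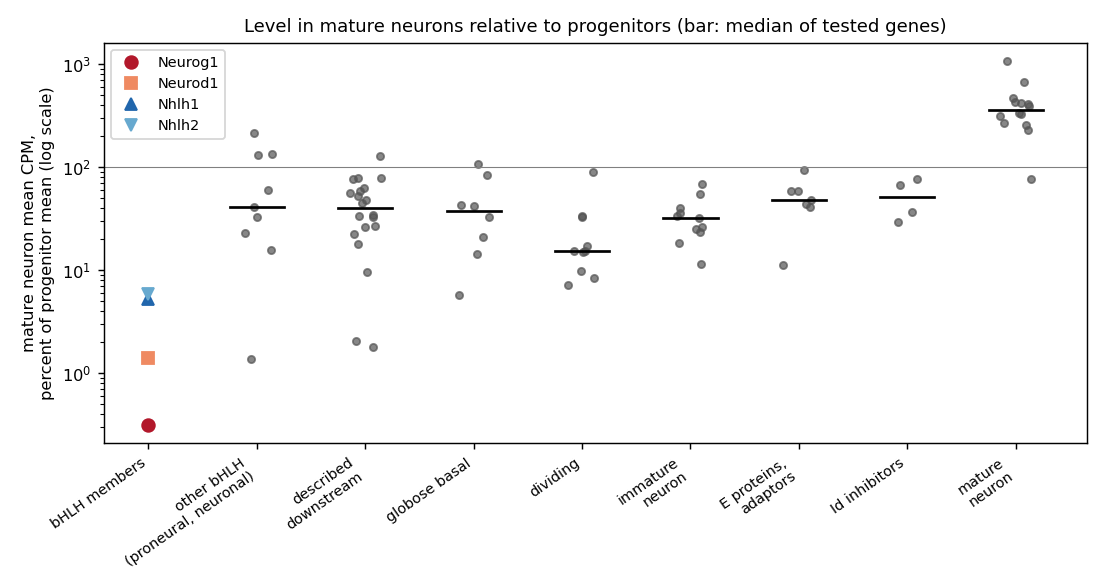
Mean CPM in mature neurons as a percent of the mean in progenitors (log scale; the line marks 100%) for 4 of the bHLH factors and, as grey points, the tested genes of 8 lists with their medians as bars. Neurog1 is at 0.311%, Neurod1 at 1.39%, and Nhlh1 and Nhlh2 at 5.20% and 5.87%, against list medians of 15.1% for dividing and 39.4% for described downstream genes. Single genes of these lists ran from 7.07% to 89.9% (dividing) and from 1.80% to 127.2% (described downstream).

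The genes with the most similar profile over the 7 libraries were found by the root mean square difference of log2 CPM, each gene centred on its own mean, among 10102 candidates with at least 10 CPM in the higher population. These are descriptions, dominated by the fold between the populations. Olfactory receptors and genes with names of the Gm, Rik and -ps types were left out of the candidates. The genes near Neurog1 included Neurod1 at 1.04, Cxcl14, a chemokine, at 1.04 and St18 at 1.24. The genes nearest to Neurod1 were St18 at 0.264, Cxcl14 at 0.343 and Mfng at 0.347.

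For Nhlh1 the nearest genes were Tex15 at 0.193, Crabp1, a retinoic acid binding protein, at 0.206, Itga8, an integrin, at 0.209, Tmem163 at 0.219 and Nhlh2 at 0.235. For Nhlh2 they were Rbm24, an RNA-binding protein, at 0.094, Thsd7b at 0.104, Eya2, a transcriptional coactivator, at 0.151, Cxcr4, a chemokine receptor, at 0.153 and Kcnip3 at 0.156. Among the members themselves Nhlh1 and Nhlh2 were the closest pair and Neurog1 and Nhlh2 the most distant, at 2.07. For Neurod2 the nearest were Grasp, Ppp1r14a and Syt13, but its profile depends on the prior count used for its zeros. With TPM in place of CPM, 3 of the 5 nearest genes were shared for Neurog1, 2 for Neurod1, 2 for Nhlh1, 3 for Nhlh2 and 0 for Neurod2. Those shared for Neurod1 were Cxcl14 and Mfng, and those for Nhlh1 were Tex15 and Crabp1. St18 was then not among the nearest to Neurod1 or Neurog1, nor Nhlh2 among the nearest to Nhlh1.

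Age was the last comparison, as a slope in log2 CPM per doubling of the postnatal day. In progenitors the slopes were -0.46 for Neurog1 (SE 0.14), -0.44 for Neurod2 (SE 0.18), -0.26 for Neurod1 (SE 0.13), -0.15 for Nhlh2 (SE 0.10) and -0.08 for Nhlh1 (SE 0.12). None of the 5 was called, and with edgeR 0.0% of the 17975 genes were (10.3% had an unadjusted p under 0.05; DESeq2 called 143 genes, limma 0). Neurog1 had an unadjusted p of 0.0149 and an edgeR adjusted p of 0.403. The negative slopes of Neurog1, Neurod1, Nhlh2 and Neurod2 rested on the P3 library: without it they were 0.0381, 0.0195, 0.0506 and -0.0356. That of Nhlh1 was then more negative, at -0.24, and not called (edgeR adjusted p = 0.996). The same library had the highest sums of dividing cell markers (638 TPM, against 392 to 427 TPM in the other 3) and of globose basal cell markers (699 TPM, against 482 to 558 TPM). The part of these markers in the slopes was not tested, and 1 library per age gives no replicate of an age.

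In mature neurons the slopes were -0.08 for Neurog1 (SE 0.26), 0.10 for Neurod1 (SE 0.18), -0.20 for Nhlh1 (SE 0.11) and -0.04 for Nhlh2 (SE 0.10). None of the 4 was called, and edgeR called 0.0% of all genes (18.3% had an unadjusted p under 0.05; DESeq2 called 775 genes, limma 0). Nor was any factor called for the slope shared by both populations, where Neurog1 had -0.37 (SE 0.13, edgeR adjusted p = 0.162) and 0.0% of genes were called (20.8% at an unadjusted p under 0.05; DESeq2 1500, limma 0). Without the P3 progenitor library the shared slope of Neurog1 was -0.031 (edgeR adjusted p = 0.928). The difference of slopes between the populations was 0.38 for Neurog1, 0.36 for Neurod1, 0.12 for Nhlh2 and -0.12 for Nhlh1, none called, again with 0.0% of genes (5.98% at an unadjusted p under 0.05; DESeq2 6, limma 0). Neurod2, at 0 in mature neurons, gave no slope there.

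**Figure D5:**
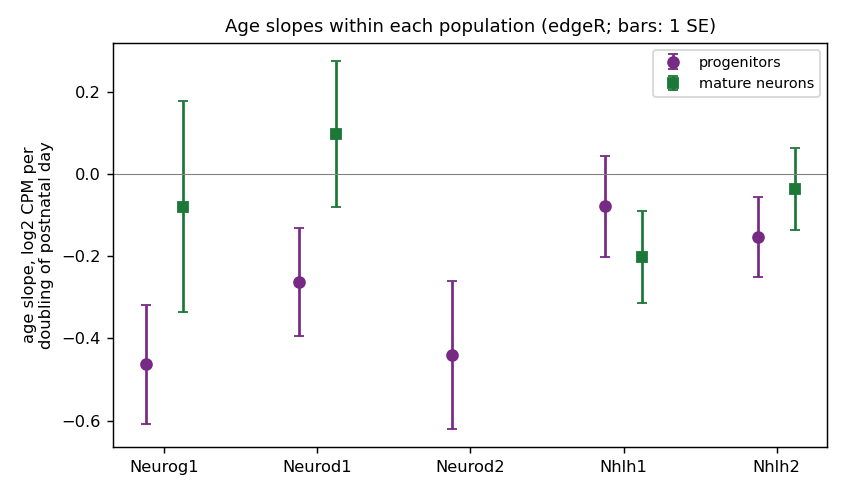
Age slope of each factor (log2 CPM per doubling of postnatal day; bars are 1 SE) within progenitors and within mature neurons. Neurog1 and Neurod2 have the most negative progenitor slopes (-0.46 and -0.44), the mature neuron slopes lie between -0.20 and 0.10, and none passed the test.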

How the data were processed

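Poly(A) RNA of FACS-sorted cells was extracted with TRIzol and made into libraries with a stranded mRNA kit, per the labels' protocols. Tools listed in the submitters' processing notes are STAR 2.6.1c, RSEM and bcl2fastq 2.18, with the build mm10 and no role or order. No source used here gives the strand setting or annotation. The authors deposited whole-number read counts per gene, with 24203965 to 25930727 counts on genes per library; 4 further entries that name no gene held 23.53% to 27.22% of the total and were left out. The authors also deposited TPM values, used for levels between genes.

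The counts were tested with edgeR 4.0.16 (R 4.3.3; quasi-likelihood, TMM factors, filterByExpr by population, Benjamini-Hochberg adjustment at 0.05) over all 7 libraries. The population fit had 5 residual degrees of freedom, the fit with log2 of the postnatal day 4 and the fit with its interaction 3. CPM uses TMM factors. Standard errors come from the fold and its F statistic. Ages serve as the replicates of a population, so a p-value reflects the spread between libraries. Within a population each library is from a different postnatal day, so its libraries came from different animals. Spread between animals, age and technical spread cannot be told apart here. Alternatives used DESeq2 1.42.0, limma 3.58.1 on log2(TPM + 1) and log2(TPM + 0.1), other filters and scalings, age in days, and each library left out. Exact permutation tests used scipy 1.17.1.

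The 5 factors and the 17 gene lists were chosen with earlier results of these data known. Named genes were the 5 factors; up to 4 called genes with the smallest p per list; E protein, Id and other bHLH genes with a mean of at least 10 TPM; and the 5 genes nearest in profile. A selection of these is printed, and a few are not reported here. The ratios between factors were added after the data were seen. Of the gene IDs, 54409 of 54532 matched the GENCODE M21 annotation.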

Additional observations from a re-analysis of the deposited data

Results flagged for a closer look

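Neurod1 in the P3 progenitor library lay far from the other 3 progenitor libraries, at 238.9 TPM against 154 to 165 TPM and at 400.1 CPM against 250 to 266 CPM. Its gap to the nearest library was 0.875 of the whole range in TPM and 0.896 in CPM, above Dixon's critical value for 4 samples. In all 16 groups of 4 progenitor values were looked at in this way, and chance flags about 1 in 20 groups. Both values come from the same library, so they are not separate observations. Without it the log2 fold of Neurod1 between the populations was -5.98.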

How the results depend on the processing

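The population folds of Neurog1, Neurod1, Nhlh1 and Nhlh2 kept their direction and call in all 15 alternatives, at -7.52 to -8.58, -5.79 to -6.56, -4.05 to -4.45 and -3.99 to -4.23 (adjusted p at most 0.000113). For Neurog1 the direction was largely set by the design, so its stable call is a description. The number of genes called was 9331 to 11350. Of 76 other named genes, 61 kept their call throughout, 12 lost it and 3 gained it in some alternative, and 0 changed direction. The library titles and descriptions give an age and no replicate number. With P7 and P16 alone and age as a replicate block, 9331 genes were called, and the folds were -7.76 for Neurog1, -5.84 for Neurod1, -4.45 for Nhlh1 and -4.05 for Nhlh2; pairing by age changed no call of the factors. Age calls depended on the tool, and the cause was not tested. For the shared slope DESeq2 called 1500 genes, no filter 770 and age in days 1124, and leaving out 1 library gave 0 to 986, the latter without the P7 mature neurons. For progenitors DESeq2 called 143, and 1 library left out gave 0 to 3. For mature neurons DESeq2 called 775, no filter 140 and age in days 1169; 815 were called without the P7, 216 without the P2 and 1 without the P16 library, and 0 without any other. For the difference of slopes DESeq2 called 6, and 1 library left out gave 0 to 2.

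No slope of the 5 factors was called, and many changed sign. With 1 library left out the progenitor slopes ranged from -0.632 for Neurog1, -0.448 for Neurod1 and -0.344 for Nhlh2, and the shared slope of Neurod1 from -0.309, up to the values given next. The mature slopes reached -0.76 for Neurog1, 0.576 for Neurod1, -0.717 for Nhlh1 and -0.41 for Nhlh2 at the other end of their range, and the differences 0.737 for Neurog1, 0.838 for Neurod1, -0.638 for Nhlh1 and 0.323 for Nhlh2. With age in days the mature slope of Neurod1 was -0.0058. Without the P3 progenitors the progenitor slopes of Neurog1, Neurod1 and Nhlh2 were 0.0381, 0.0195 and 0.0506, that of Nhlh1 was -0.24, the shared slopes of Neurod1 and Neurog1 were 0.0749 and -0.031, and the differences of Neurog1, Nhlh1 and Nhlh2 were -0.117, 0.0379 and -0.0855. Without the P16 mature neurons the mature slopes of Neurog1, Nhlh1 and Nhlh2 were 0.274, 0.0748 and 0.17 and the difference of Nhlh1 was 0.153. Without the P2 mature neurons the mature slope of Neurod1 was -0.744 and the differences of Neurog1, Neurod1 and Nhlh2 were -0.297, -0.482 and -0.256. With 1 library left out the ratio differences were 1.95 to 2.19 for Neurod1 to Neurog1, 3.75 to 4.26 for Nhlh1 to Neurog1, 4.07 to 4.41 for Nhlh2 to Neurog1, 1.65 to 2.11 for Nhlh1 to Neurod1 and 2.01 to 2.37 for Nhlh2 to Neurod1, where fewer splits cannot reach the threshold; that of Nhlh2 to Nhlh1 was 0.0737 to 0.357. Counts of 26 to 49 limit the precision of Neurog1 in mature neurons.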
